A study of Homo sapiens with 6 samples.

Results

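Mucin genes encode large, heavily O-glycosylated proteins whose central domains are arrays of repeats rich in proline, threonine and serine. The gel-forming mucins MUC2, MUC5AC, MUC5B and MUC6 are secreted and make the mucus of gut, airway and stomach, and their genes lie side by side on chromosome 11. The membrane mucins MUC3A, MUC12 and MUC17 coat the surface of intestinal epithelium, and their genes form a row on chromosome 7. MUC1, MUC4 and MUC16, also membrane mucins, stand at separate loci on chromosomes 1, 3 and 19. MUC16 carries the CA125 antigen.

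Sites of thymidine glycol (Tg), an oxidised form of thymidine, were examined at these 10 genes out of 20037 protein-coding genes. Tg was mapped by DPC-Seq, in which added NTHL1 glycosylase is cross-linked to the DNA from which it cuts the damaged base, and the cross-linked fragments are enriched and sequenced. The cells were HEK293T, a human embryonic kidney line, as a double knockout with genotype NTHL1-/-,NEIL1-/- and as wild type, with no treatment of the cells, each with 2 DPC-Seq libraries and 1 input library. NTHL1 and NEIL1 are among the glycosylases that start base excision repair of oxidised pyrimidines. The labels do not say how the knockout was made or how many clones it represents. Sites came as 1 deposited list for each genotype, so no value has a spread between replicates and no difference between the genotypes has a p-value. Intervals below cover counting error only.

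A site was taken as a member when its midpoint lay in one of the 10 genes or within 5 kb of it. This gave 24 of 9373 double-knockout sites and 10 of 3688 wild-type sites. The genes were chosen by family name and selected on site numbers already known from these lists, so the numbers of sites per gene are a description. The gene table used gives the outer bounds of each gene and not its exons, so sites were placed along the gene and not in exons, introns or UTRs.

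No genome sequence of the build was used here, so the sequence of the sites themselves is not shown. The promoters that frame MUC3A, of the 10 the gene with the most sites for its length, and separate it from MUC12 are shown because sites filled much of MUC3A but left both windows free. Each RefSeq window (GRCh38.p14, plus strand) runs from 250 bases before to 50 bases after the gene start. Capitals mark thymine, the base that is oxidised to Tg.
MUC3A promoter, chr7:100949284-100949583: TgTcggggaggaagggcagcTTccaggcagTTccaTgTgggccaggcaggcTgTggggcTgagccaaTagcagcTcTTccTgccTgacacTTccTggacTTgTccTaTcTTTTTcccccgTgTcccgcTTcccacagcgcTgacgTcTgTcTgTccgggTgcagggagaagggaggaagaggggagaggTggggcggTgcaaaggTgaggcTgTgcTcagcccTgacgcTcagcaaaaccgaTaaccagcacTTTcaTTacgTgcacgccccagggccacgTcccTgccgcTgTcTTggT
MUC12 promoter, chr7:100969315-100969614: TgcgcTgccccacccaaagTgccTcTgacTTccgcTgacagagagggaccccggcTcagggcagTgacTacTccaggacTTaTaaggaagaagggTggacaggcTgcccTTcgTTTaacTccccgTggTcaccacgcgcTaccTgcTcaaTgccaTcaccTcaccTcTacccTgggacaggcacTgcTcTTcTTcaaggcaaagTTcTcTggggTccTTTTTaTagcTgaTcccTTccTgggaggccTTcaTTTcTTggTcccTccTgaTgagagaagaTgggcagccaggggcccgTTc
On the strand shown, the MUC3A window holds 63 thymines and the MUC12 window 70 in 300 bases (21.0% and 23.3%). The median was 19% over 22199 windows of protein-coding genes. Each adenine shown pairs with a thymine of the other strand. Adenine and thymine together made up 38.3% of the MUC3A and 42.3% of the MUC12 window, against a median of 37.7%. The nearest site to the MUC3A window lay 2732 bp away in the double knockout and 3120 bp away in wild type. The MUC12 window lay 1460 bp from a double-knockout site and 1521 bp from a wild-type site, both in the end of MUC3A. Of the 10 mucin genes, 7 had a window in the table, and no site of either list overlapped one. Over all 15843 protein-coding genes with a window, 0.252% had a double-knockout site overlapping it and 0.107% a wild-type site, so an absence at 7 genes is what most genes show.

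Sites were concentrated in 3 of the 10 genes. In the double-knockout list MUC5AC held 7 sites, MUC16 7 and MUC3A 6. In the wild-type list MUC3A held 5 sites, MUC5AC 4 and MUC16 1. MUC12 held 2 double-knockout sites and no wild-type site in its body, and it lay within 5 kb of a further site in the end of MUC3A in each list. MUC17 held 1 double-knockout site and no wild-type site. MUC1 had 1 double-knockout site in its flank only and no wild-type site. MUC2, MUC4, MUC5B and MUC6 had no site in either list.

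**Figure D1:**
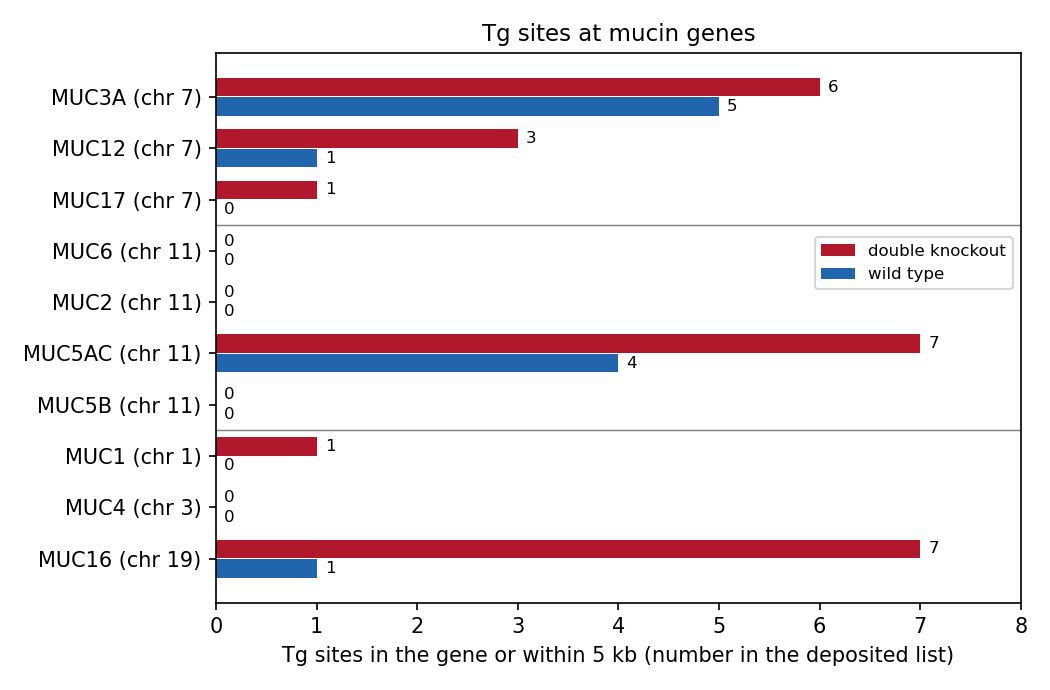
Number of Tg sites (x axis) in or within 5 kb of each mucin gene (y axis), with the double knockout as the upper red bar and wild type as the lower blue bar, and grey lines separating the chromosome 7 cluster, the chromosome 11 cluster and the separate loci. MUC5AC, MUC16 and MUC3A hold 7, 7 and 6 double-knockout sites, against 4, 1 and 5 wild-type sites; the site in the end of MUC3A is counted for MUC12 too.

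At least 1 double-knockout site lay at 6 of the 10 genes, where 17.2% of all protein-coding genes had one. At least 1 wild-type site lay at 4 of the 10, where 7.35% of all genes had one. For MUC12 this was only the site in the end of MUC3A, and 3 of the 10 held a wild-type site in their body. Among protein-coding genes in the length range of the 10 mucin genes the shares were 17.6% and 7.41%. These shares are given beside the counts only, since site numbers chose the genes. The median number of sites per mucin gene was 1 in the double knockout and 0 in wild type. Over all protein-coding genes the median density was 0 sites per 100 kb in both lists. Genes with at least 6 double-knockout sites, as MUC3A, MUC5AC and MUC16 were, made up 0.359% of all genes. Genes with at least 4 wild-type sites, as MUC3A and MUC5AC were, made up 0.304%.

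MUC3A (chromosome 7, 100949534 to 100968347; GRCh38.p14 and the hg38 build of the lists number the chromosomes alike) is only 18814 bp long. With its flanks it carried 20.8 double-knockout and 17.4 wild-type sites per 100 kb, rank 6 and rank 2 of all protein-coding genes. MUC5AC (chromosome 11, 1157953 to 1201138) carried 13.2 and 7.52 per 100 kb, rank 36 and rank 77. The long MUC16 gene (chromosome 19, 8848844 to 9065751) had as many double-knockout sites as MUC5AC over 216908 bp. Its density was 3.08 double-knockout and 0.441 wild-type sites per 100 kb, rank 1160 and rank 1267. MUC12 (100969565 to 101018936) had 5.05 and 1.68 per 100 kb, and MUC17 (101020081 to 101058859) 2.05 and 0. Both MUC12 values count the site in the end of MUC3A, and the wild-type value rests on it alone.

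In the double knockout, 5 of the 6 MUC3A sites followed one another in a nearly unbroken block. The block ran from 100952315 to 100960692, from 14.8% to 59.3% of the way along the gene from its start, and sites covered 87.5% of its 8378 bp. The sites in order were 806, 891, 2586, 2731 and 319 bp wide. Their fold enrichments over the caller's background were 5.66, 6.60, 7.14, 7.16 and 3.97, and 34, 24, 28, 29 and 20 reads stood at their summits. The pair in the middle was broad for this list, at rank 20 and rank 15 by width among 9373 sites with a median width of 409 bp. The gap between sites within the block was as small as 159 bp.

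The wild-type list showed the same stretch as 4 separate, narrower sites. They lay at 100952703 to 100952945, 100954581 to 100955204, 100957487 to 100957913 and 100958947 to 100959563, with widths of 243, 624, 427 and 617 bp. Their folds were 3.99, 4.31, 6.03 and 5.36, and their summits held 9, 14, 17 and 15 reads. Together they covered 27.9% of the 6861 bp between the outer ends. Each fell inside the double-knockout block, and the last pair fell inside a single double-knockout site, the one 2731 bp wide. Over the whole gene, sites covered 41.1% of MUC3A in the double knockout and 11.6% in wild type. The lowest background of a list, which scales with depth times fragment length, was 1.69 times as high for the double knockout as for wild type, and its part in the covered length was not tested.

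The remaining MUC3A site lay 96.3% of the way along the gene in both lists. It ran from 100967465 to 100967855 in the double knockout (fold 5.36, 30 reads) and from 100967523 to 100967794 in wild type (fold 4.24, 19 reads). The summits of this pair lay 30 bp apart. The caller's background there was 3.82 times the lowest of the double-knockout list and 5.03 times the lowest of the wild-type list, against medians of 2.12 and 2.35 over each list. It was the highest background of the 10 wild-type mucin sites, and its part in the result was not tested.

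MUC12 and MUC17, the next genes in the row, carried double-knockout sites and no wild-type site in their bodies. The MUC12 sites at 100991965 to 100992395 and 101005119 to 101005549 lay 45.8% and 72.4% along the gene. The first had a fold of 4.19 with 16 reads. The second had a fold of 8.55 with 25 reads, the highest fold and the lowest q of all 24 double-knockout mucin sites (rank 543 of its list). The MUC17 site, 101042926 to 101043886, lay 60.1% along its gene and was 961 bp wide, with a fold of 4.80 and 21 reads. Divided by 1.69, these read numbers become 9.45, 14.8 and 12.4. Wild-type sites held a median of 13 reads, with a wide range of 6 to 405, so lying within that range says little. The part of depth and local background in the absence of wild-type sites was not tested.

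**Figure D2:**
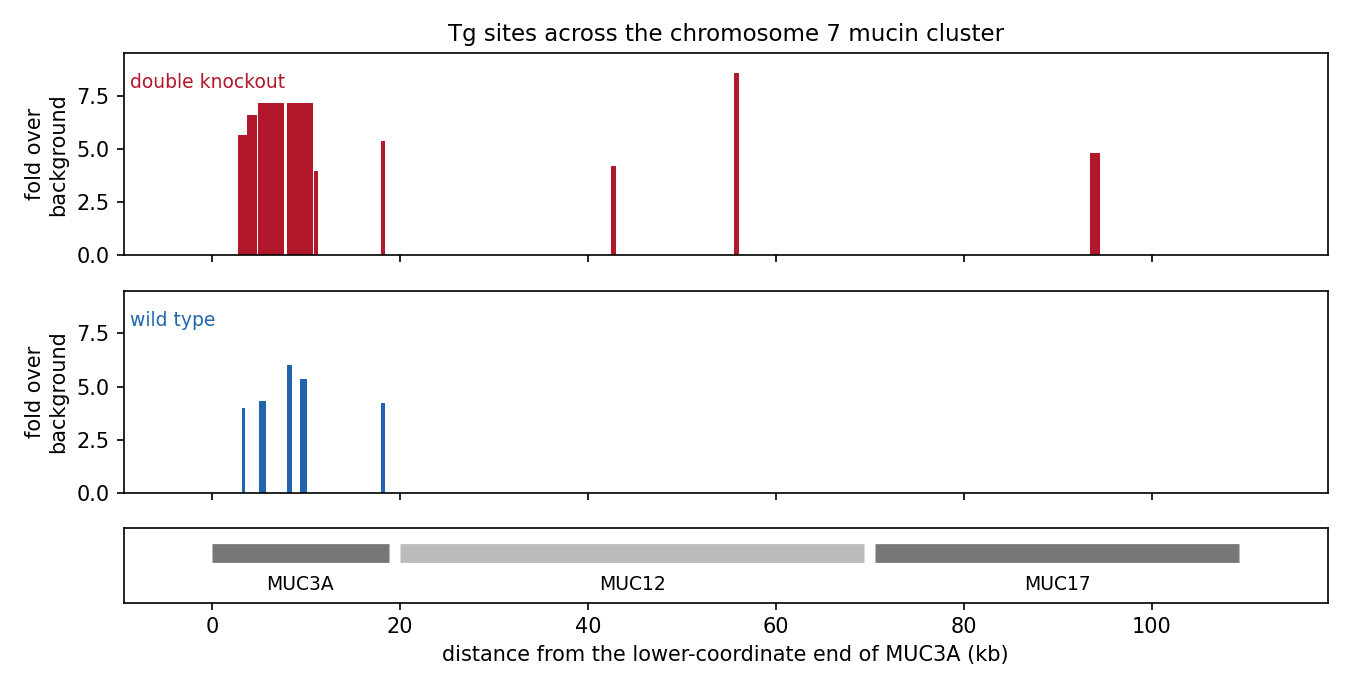
Tg sites across MUC3A, MUC12 and MUC17, with distance in kb from the lower-coordinate end of MUC3A on the x axis and fold over the caller's background on the y axis; each bar spans 1 site, double knockout above (red) and wild type below (blue), with the genes as grey blocks. The 5 adjoining double-knockout sites fill 87.5% of an 8378 bp stretch of MUC3A, the 4 wild-type sites there are separate, and MUC12 and MUC17 hold bars in the double-knockout panel and none in the wild-type panel.

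On chromosome 11 every site of the cluster lay in MUC5AC, the main gel-forming mucin of stomach surface and airway goblet cells. The 7 double-knockout sites had widths of 593, 1513, 508, 773, 1823, 735 and 484 bp in the order of their position. Their folds were 5.01, 5.02, 3.41, 4.49, 7.52, 4.78 and 5.60, with 18, 24, 16, 16, 28, 19 and 18 reads at the summits. They fell into 2 groups along the gene, counted from its lower-coordinate end because its strand is not in the tables used. The first group of 3 lay between 27.3% and 41.3% and the second group of 4 between 63.3% and 77.5%, with the largest gap of 8851 bp between them. The outer parts of the gene held no site.

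The 4 wild-type sites of MUC5AC fell 2 in each of these groups. They lay at 1171003 to 1171311, 1175540 to 1175896, 1186385 to 1186651 and 1189309 to 1189653. Their folds were 5.82, 7.02, 4.73 and 4.18, and 15, 18, 12 and 11 reads stood at their summits. The second of them had the lowest q of the 10 wild-type mucin sites (rank 452 of its list), while its double-knockout partner had the lowest fold of the 7, 3.41. Sites covered 14.9% of MUC5AC in the double knockout and 2.96% in wild type. Background at the MUC5AC sites ranged from 1.91 to 3.18 times the list minimum in the double knockout and from 2.31 to 2.53 times in wild type.

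The neighbours MUC6, MUC2 and MUC5B had no site, and in both lists the site nearest to each of them was a MUC5AC site. From MUC5B it was 31.7 kb to the nearest double-knockout site and 33.6 kb to the nearest wild-type site. From MUC2, the major mucin of the colon, these distances were 59.2 and 60.6 kb, and from MUC6, a mucin of gastric glands, 133 and 134 kb. MUC4, on chromosome 3, was farthest from any site, at 287 kb and 353 kb. These 4 genes with their flanks span 203.8 kb, in which the average rate over protein-coding genes gives 0.752 double-knockout and 0.281 wild-type sites, so an absence there is not unusual.

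**Figure D3:**
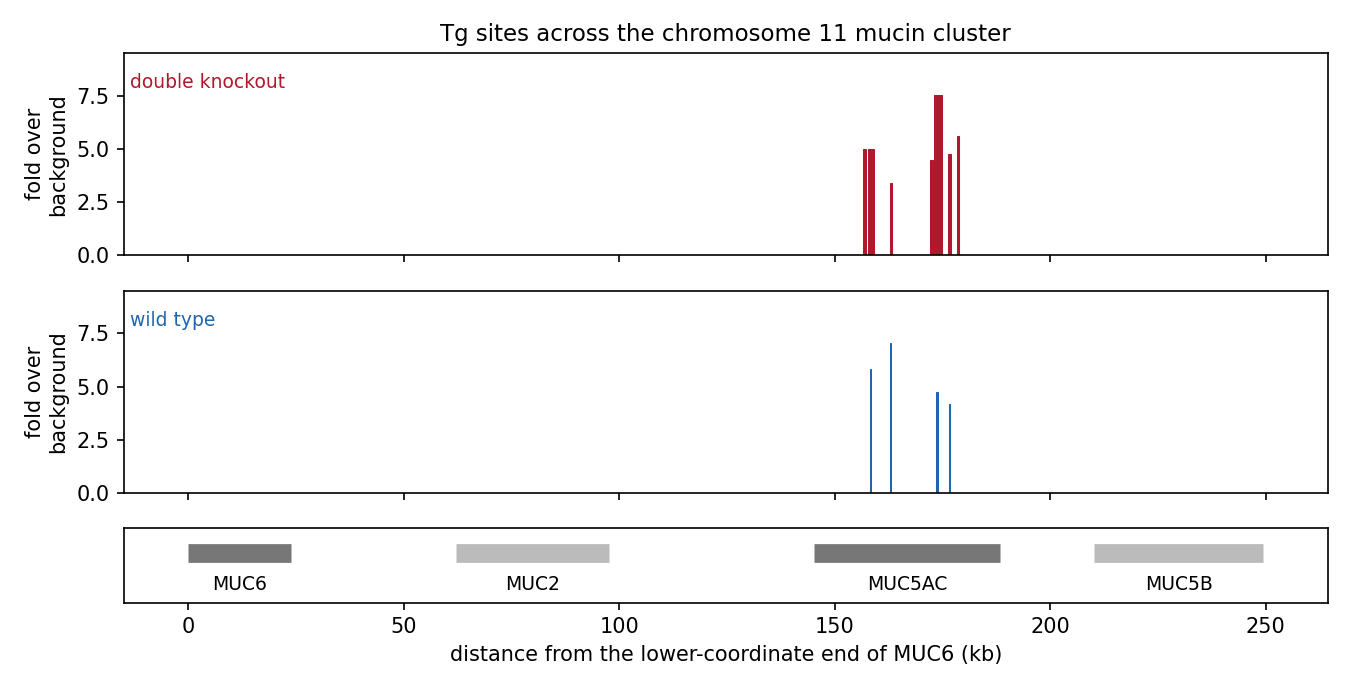
Tg sites across MUC6, MUC2, MUC5AC and MUC5B, with distance in kb from the lower-coordinate end of MUC6 on the x axis and fold over the caller's background on the y axis; each bar spans 1 site, double knockout above (red) and wild type below (blue), with the genes as grey blocks. All 7 double-knockout and all 4 wild-type sites stand over MUC5AC, in 2 groups.

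The 2 clusters were then set against each other. On chromosome 7 all 3 genes had a double-knockout site in the gene or its flank, and on chromosome 11 1 of 4 did. Per 100 kb of gene and flank, the chromosome 7 cluster had 7.54 double-knockout sites and the chromosome 11 cluster 3.85, a ratio of 1.96 with an exact counting interval of 0.649 to 6.19. In wild type the densities were 4.19 and 2.20, a ratio of 1.90 (0.410 to 9.60). Both intervals held 1, but the genes were chosen with site numbers known, so the intervals are no test of the clusters. On chromosome 7, 6 of the 9 double-knockout and all 5 wild-type sites lay in MUC3A, and on chromosome 11 all lay in MUC5AC. Neighbouring sites share their gene and are not independent of each other, which the intervals leave out. Median widths on chromosome 7 and chromosome 11 were 806 and 735 bp in the double knockout and 427 and 327 bp in wild type. Median folds on chromosome 7 and chromosome 11 were 5.66 and 5.01 in the double knockout, and 4.31 and 5.28 in wild type, so the order of the clusters by fold was not the same in the lists.

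Site density was then set beside that of the surroundings and of the whole chromosome. Between the outer ends of the chromosome 7 cluster lay 8.23 double-knockout and 4.57 wild-type sites per 100 kb, against 0.700 and 0.300 in the 500 kb on either side of it and 0.298 and 0.141 over chromosome 7. Between the ends of the chromosome 11 cluster lay 2.81 and 1.60 per 100 kb, against 1.00 and 0.300 around it and 0.298 and 0.0977 over chromosome 11. The surroundings held fewer sites per 100 kb than the clusters, whose genes were chosen with site numbers known, and more than their chromosomes in both lists. They rest on few sites, on chromosome 7 on 7 double-knockout and 3 wild-type sites. On chromosome 11 all 10 double-knockout and 3 wild-type sites of these surroundings lay on the MUC5B side, and none on the MUC6 side, towards the tip. The chromosome 11 cluster begins 1000.3 kb from the last annotated feature at its end of the chromosome, and the chromosome 7 cluster lies 58176.5 kb from the nearer end. Of 12 other protein-coding genes within 100 kb of a cluster, 1, the transporter gene SLC12A9 near MUC3A, had a double-knockout site in or within 5 kb of it, where 17.2% of all protein-coding genes had one, and none had a wild-type site, where 7.35% had one. With 12 genes these counts say nothing particular about the neighbours.

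MUC16 had 7 double-knockout sites spread over 134404 bp and 1 wild-type site. From the start of the gene, which runs on the minus strand, the double-knockout sites lay at 29.7%, 45.5%, 48.5%, 69.0%, 82.2%, 91.2% and 91.5% of its length. The gene held none before the first of these. Positions count from the outermost start, and MUC16 also has a promoter window inside these bounds, at 9010360 to 9010659. The first site lay 8763 bp from that window. The folds of the 7 sites in that order were 5.60, 6.66, 4.39, 5.33, 2.87, 2.97 and 4.12, with 18, 14, 11, 11, 11, 15 and 17 reads. The fold of 2.87, at 8887232 to 8887488, was the lowest of all mucin sites, and this was the only one of them with a q above 0.01. The pair nearest the end of the gene was separated by 201 bp, while the median gap was 23776 bp.

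The single wild-type site of MUC16, 9000911 to 9001380, had a fold of 6.45 and 14 reads and lay within the double-knockout site at 9000861 to 9001597. The 6 double-knockout sites without a partner had 11 to 17 reads, or 6.5 to 10.0 after division by 1.69. Wild-type sites held at least 6 reads and 13 in the median. The part of depth in the missing partners was not tested. Of all sites in MUC16, 1 of 8 was from the wild-type list (12.5%, exact interval 0.316% to 52.7%), against 28.2% given by the sizes of the lists. The interval held that value, but it takes the 8 sites as independent although the wild-type site overlaps a double-knockout site. It is therefore no test of the genotypes. Genes with at least 6 double-knockout and at most 1 wild-type site made up 0.0699% of protein-coding genes, and 19.4% of those with at least 6 double-knockout sites. At 2 of the 7 sites the background equalled the lowest of the list, and the ratio reached 3.50 at another.

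**Figure D4:**
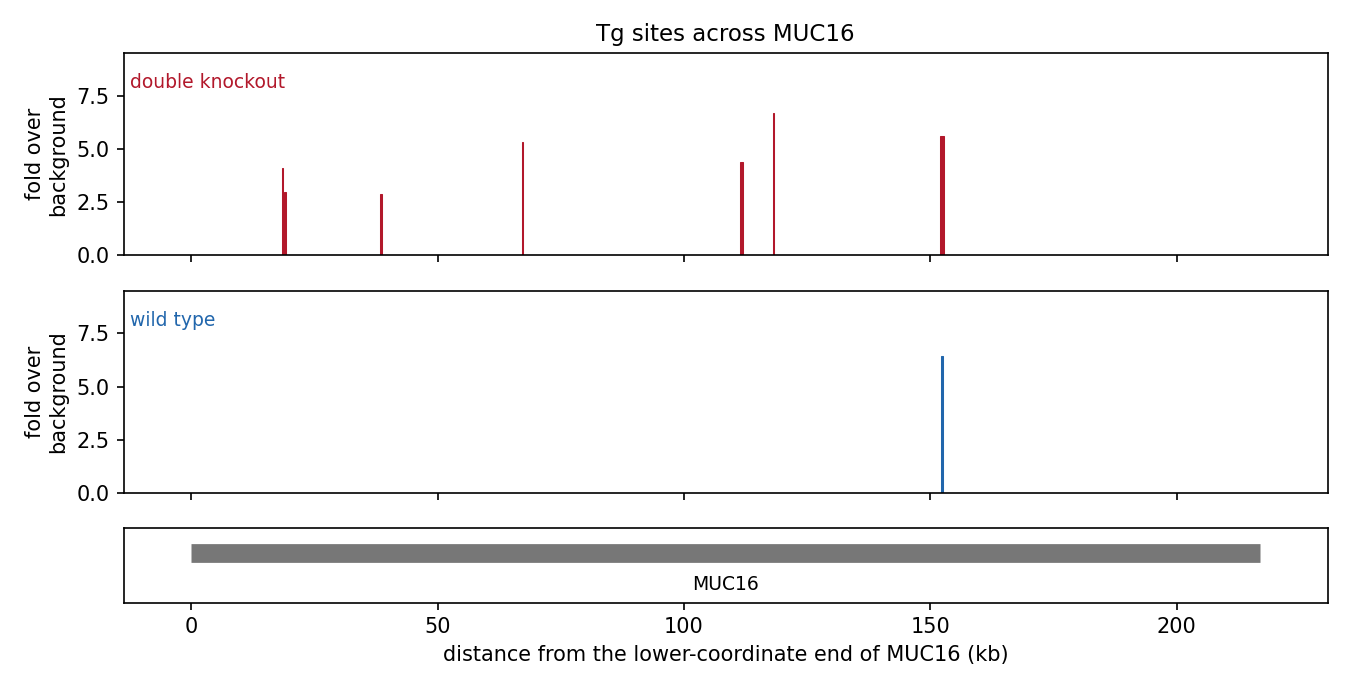
Tg sites across MUC16, with distance in kb from the lower-coordinate end of the gene (its 3′ end) on the x axis and fold over the caller's background on the y axis; each bar spans 1 site, double knockout above (red) and wild type below (blue), with the gene as a grey block. The 7 double-knockout sites are scattered over 134404 bp, and the 1 wild-type site coincides with the one nearest the gene start.

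The MUC1 site was the only mucin site outside a mucin gene. It lay at chromosome 1, 155183377 to 155183770, 2251 bp beyond the 3′ end of MUC1 (155185824 to 155192915) and inside the neighbouring gene TRIM46, with a fold of 6.32 and 33 reads in the double knockout. The nearest wild-type site was 72.1 kb away. Widening the flank to 10 kb brought in no site that was not already counted for one of the 10 genes, in either list.

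All 10 wild-type mucin sites overlapped a double-knockout site (100%, exact interval 69.2% to 100%), where 75.3% of all wild-type sites did. Of the 24 double-knockout mucin sites, 9 overlapped a wild-type site (37.5%, 18.8% to 59.4%), where 28.3% of all double-knockout sites did. Both intervals held the share of the whole list, but they take the sites as independent, although most lie in MUC3A or MUC5AC. The genes were also chosen with site numbers known, so the intervals are no test against the whole lists. The 9 shared double-knockout sites were wider, at 806 against 431 bp in the median, than the 15 unshared ones, and held more reads, at 28 against 17. When at least 50% of both sites had to coincide, 12.5% of double-knockout and 30.0% of wild-type mucin sites were shared, against 21.5% and 54.7% of the whole lists.

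Reads at the summits of the 10 overlapping pairs were compared after dividing double-knockout reads by 1.69. The pairs hold 9 double-knockout sites, because the MUC3A site 2731 bp wide overlapped more than 1 wild-type site. The pairs are therefore not all independent. The ratio of the double knockout to wild type had a median of 1.01 and ranged from 0.525 to 2.23, and over all 2812 overlapping pairs of the lists the median was 0.939. The counting interval held 1 in 9 of the 10 pairs. The exception was the first MUC3A pair, with 34 double-knockout and 9 wild-type reads and a ratio of 2.23 (1.05 to 5.29). With 10 intervals examined, this one was not adjusted for their number. The summits of a pair lay 30 to 1324 bp apart, 413 bp in this one, so many of the 10 ratios, and their median, set reads of different positions against each other. The lowest ratio, 0.525 (0.251 to 1.09), belonged to the MUC5AC pair at 1175540, with 16 double-knockout and 18 wild-type reads. The site in the end of MUC3A gave 0.933 (0.508 to 1.75) and the MUC16 pair 0.760 (0.357 to 1.65).

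**Figure D5:**
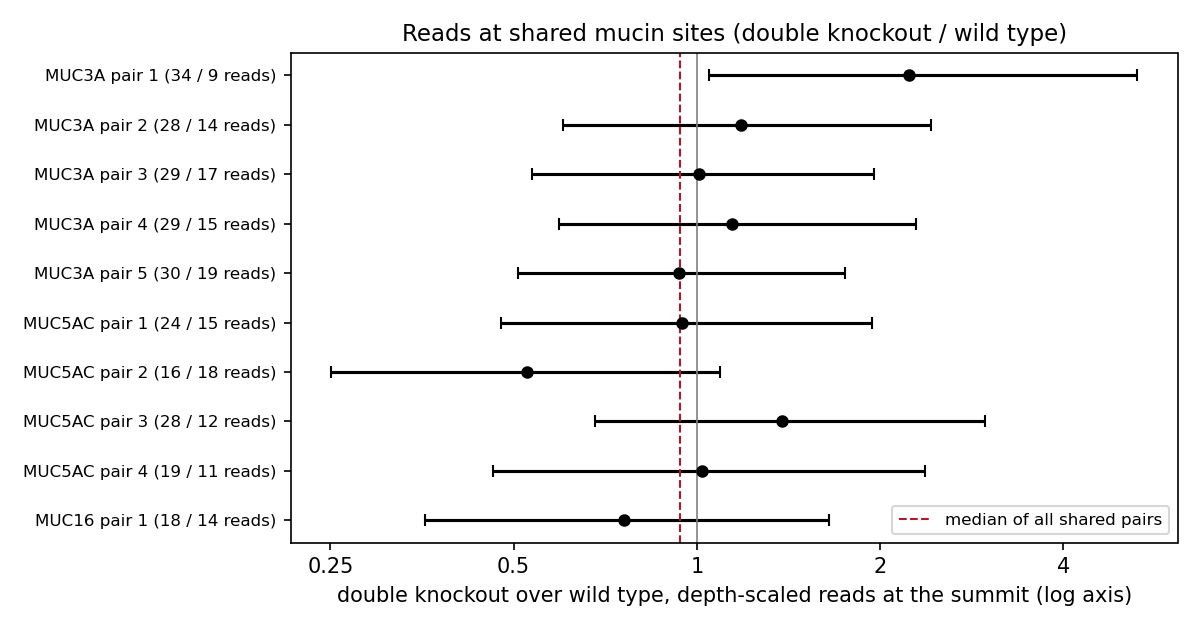
Ratio of double-knockout to wild-type reads at the summits of the 10 overlapping mucin pairs (x axis, log scale, double-knockout reads divided by 1.69), numbered within each gene by wild-type position on the y axis with the raw double-knockout and wild-type reads; bars are 95% exact counting intervals, the grey line is 1 and the dashed line the median of all pairs, 0.939. The interval of the first MUC3A pair lies above 1 and the other 9 hold it.

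In number, the mucin sites of the 2 lists stood in a ratio of 2.40 (24 to 10), and the whole lists in a ratio of 2.54. The ratio was 1.20 in MUC3A, 1.75 in MUC5AC and 7.00 in MUC16. Of the mucin sites of both lists, 29.4% were from wild type (exact interval 15.1% to 47.5%), against 28.2% of all sites. That interval takes the sites as independent, although all 10 wild-type sites overlap double-knockout sites. Fold enrichments were likewise near those of the lists: the median was 5.17 in the double knockout and 5.05 in wild type at mucin sites, and 4.93 and 5.12 over all sites. Broad sites of at least 1000 bp were 4 of the 24 double-knockout mucin sites and none of the 10 wild-type ones, where 5.81% and 4.53% of all sites were that broad. All 4 lay in MUC3A and MUC5AC. Background at mucin sites had a median of 2.5 times the list minimum in the double knockout and 2.45 times in wild type.

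Among 12 other mucin-named genes, MUC7, a salivary mucin, held 1 double-knockout site and no wild-type site, and the other 11 held none in either list. Most genes hold none, as 17.2% of all protein-coding genes had a double-knockout site and 7.35% a wild-type site. MUC8, which was not on that list and was added after its value was seen, had 1 double-knockout site and no wild-type site. Among 27 genes of mucin-type O-glycosylation, 11 (40.7%) had a double-knockout site and 3 (11.1%) a wild-type site, against the same 17.2% and 7.35% of all genes. Gene length was not matched in this count, and the list holds very long genes such as GALNT13 (1388282 bp, no site) and GALNTL6 (1228156 bp, 1 double-knockout site). GALNT9 had 10 of the 24 double-knockout and 8 of the 10 wild-type sites of the list, and GALNT14 had 3 and 0. Of 13 genes for other long repeat-rich proteins or proteins with the von Willebrand D domain found in gel-forming mucins, 7 (53.8%) had a double-knockout site and 3 (23.1%) a wild-type site, against 17.2% and 7.35% of all genes, again with length not matched. These were ZAN, TECTA and FCGBP in both lists and LPA, DMBT1, OTOG and VWF in the double knockout, each with 1 or 2 sites per list.

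The genes nearest to MUC5AC in sites per 100 kb in both lists, among 98 other genes with at least 3 sites in each, were CEP170B (11.8 double-knockout and 7.10 wild-type sites per 100 kb), NUMBL (11.5 and 8.63) and SPPL2B (11 and 8.24). MUC16 itself, with 1 wild-type site, falls short of that minimum, so genes with as few wild-type sites could not be named beside it. Among the 98, the genes nearest to MUC16 were SORCS2 (2.5 and 0.535), KCNIP1 (2.54 and 0.763) and CACNA1E (2.40 and 0.799). Likeness was the distance between log2 densities over the 2 lists, from 0.174 to 0.292 for MUC5AC and from 0.414 to 0.933 for MUC16.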

How the data were processed

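DPC-Seq sites of HEK293T cells were taken from the 1 deposited list per genotype, matched to the labels by the genotype word in the library titles. The submitters' processing notes name the hg38 build and the tools MACS2, Bowtie2, deepTools and bedtools; the sources used here do not give versions, settings, the pooling of the 2 libraries or the control. The deposited score is 10 times −log10 q, rounded down. The deposited fold enrichment is a ratio over the caller's background, and the deposited −log10 p and −log10 q are the caller's; the largest q was 0.0489 in the double-knockout and 0.0450 in the wild-type list. The summit is deposited as an offset in bp. Library totals are unknown, so depth is known only as a ratio of the lists. Whole reads and background were recovered from fold and −log10 p (all sites within 0.001; 100% recovered on simulated data).

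Double-knockout reads were divided by the ratio of lowest backgrounds (1.69), or, per bp of the narrowest site (256 and 243 bp), by 1.61 as an alternative. Genes and promoters came from RefSeq tables of GRCh38.p14; the strand came from the promoter table. Overlap means at least 1 bp. Intervals are 95% exact Poisson, Clopper-Pearson or conditional binomial, computed in Python 3.11.15 with scipy 1.17.1. All 10 genes were named, other genes by fixed lists, a minimum of sites or nearness in density. The members and lists were chosen with earlier results of these data known. Amplified reads are not independent molecules, and the uneven copy number of HEK293T chromosomes was not corrected for. How uniquely reads map in the repeat arrays of the mucin genes was not examined. Its part in the sites found there, or in their absence, was not tested.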

Additional observations from a re-analysis of the deposited data

How the results depend on the processing

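Of 58 values recomputed under the alternatives, 56 stayed close to the value as reported, counts within 1.5 times and other values within their 95% interval. These alternatives were no flank, a flank of 10 kb, placing sites by their summit, counting any overlap with the gene, q below 0.01, and dividing by depth alone, which gave a median read ratio of 1.07. The 2 that moved were the shares of overlapping sites when at least 50% of both sites had to coincide, 12.5% in the double knockout and 30.0% in wild type. By construction, a wide site cannot share that much with a narrow one. The median read ratio over pairs that did was 0.760. It counted as close only because it equalled the lower end of the reported interval, 0.760 to 1.38. Its own interval, 0.525 to 0.933, held neither 1 nor the reported 1.01. It rests only on the MUC5AC pair with the lowest ratio, the MUC16 pair and the pair in the end of MUC3A. The interval is just the range of their ratios, and the counting interval of each pair held 1. No paired analysis was possible because each genotype was deposited as 1 list with no values per library, and for the same reason no replicate could be left out. With 9 to 34 reads at the mucin summits, single-site intervals span several fold, and differences within them were not detectable at this depth.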
